A study of Capra hircus with 8 samples.

Results

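The genes described here are 10 that encode the contractile apparatus of smooth muscle and its anchors in the cytoskeleton. They were chosen by symbol and are ACTA2, MYH11, MYLK, TAGLN, CNN1, SMTN, LMOD1, DES, SYNM and NEXN. All 10 were present among the 18815 genes of the authors' first count table, each once, and all 10 passed the filter on low counts, which left 14085 genes to test. The samples were skin of cashmere goats (4 libraries) and of milk goats (4 libraries), with 1 library per breed in each of months 3, 6, 9 and 12. The labels give no treatment or genotype. A sample's month is entered as its age, whereas the design text names months, so months of life and months of the year cannot be told apart here. The labels do not say how many animals stand behind a library or where on the body the skin was taken.

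Smooth muscle in skin lies in the arrector pili, small muscles that run from the hair follicle to the upper dermis and raise the hair, and in the walls of arteries and veins. The connective tissue sheath around the follicle also holds contractile cells that make many of the same proteins. In smooth muscle, calcium and calmodulin activate myosin light chain kinase (MYLK), and the phosphorylated myosin (heavy chain MYH11) then pulls on filaments of smooth muscle actin (ACTA2). Calponin (CNN1), transgelin (TAGLN) and smoothelin (SMTN) sit on those actin filaments, leiomodin (LMOD1) starts new ones, nexilin (NEXN) binds actin at adhesion sites and at the discs of striated muscle, and the intermediate filament proteins desmin (DES) and synemin (SYNM) tie the contractile units to each other and to the cell membrane. Transcription of most of these genes is driven by serum response factor with its partner myocardin.

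The libraries held 7480053 to 8718429 gene reads in cashmere goats and 11333734 to 13899750 in milk goats. Levels are given as CPM, reads per 1000000 after TMM scaling, unless FPKM is named. At these depths a gene with 0 reads could have had up to 3, or 0.231 to 0.395 CPM by library. The lowest count of any of the 10 genes in any library was 181 reads (LMOD1, cashmere goats, month 6). The tissue label was checked on 9 epidermal genes, which summed to 29721 to 33884 CPM in cashmere goats and to 29847 to 54581 CPM in milk goats. In the authors' second count table, which uses another gene set with symbols taken from sheep entries, 9 of the 10 genes were found under their symbol. LMOD1 was not among them. That table places them on separate goat chromosomes: MYLK on 1, DES on 2, NEXN on 3, CNN1 on 7, TAGLN on 15, SMTN on 17, SYNM on 21, MYH11 on 25 and ACTA2 on 26. Neither table's genome build is named in the sources used here.

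The main comparison was that of cashmere with milk goats, with month held as a factor. Each of the 10 had a lower fitted level in cashmere goats, and 4 of them passed the test: LMOD1, DES, SYNM and NEXN. In the same fit, 3.32% of all tested genes were called lower in cashmere goats, 1.47% higher and 4.79% in either direction. The median log2 fold change of the 10 was -0.79, against 0.03 over all tested genes, of which 47.2% were negative. At an unadjusted p under 0.05, 8 of the 10 were lower in cashmere goats, ACTA2 and CNN1 being the exceptions, against 13.9% of all tested genes. In 6 of the 10 (TAGLN, SMTN, LMOD1, DES, SYNM and NEXN) every milk goat library lay above every cashmere goat library, which was so for 8.02% of all tested genes. Tests were edgeR's quasi-likelihood test in a model of month and breed, with Benjamini-Hochberg adjustment over all 14085 genes. In bulk skin, fewer muscle cells and less RNA per muscle cell cannot be told apart.

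**Figure D1:**
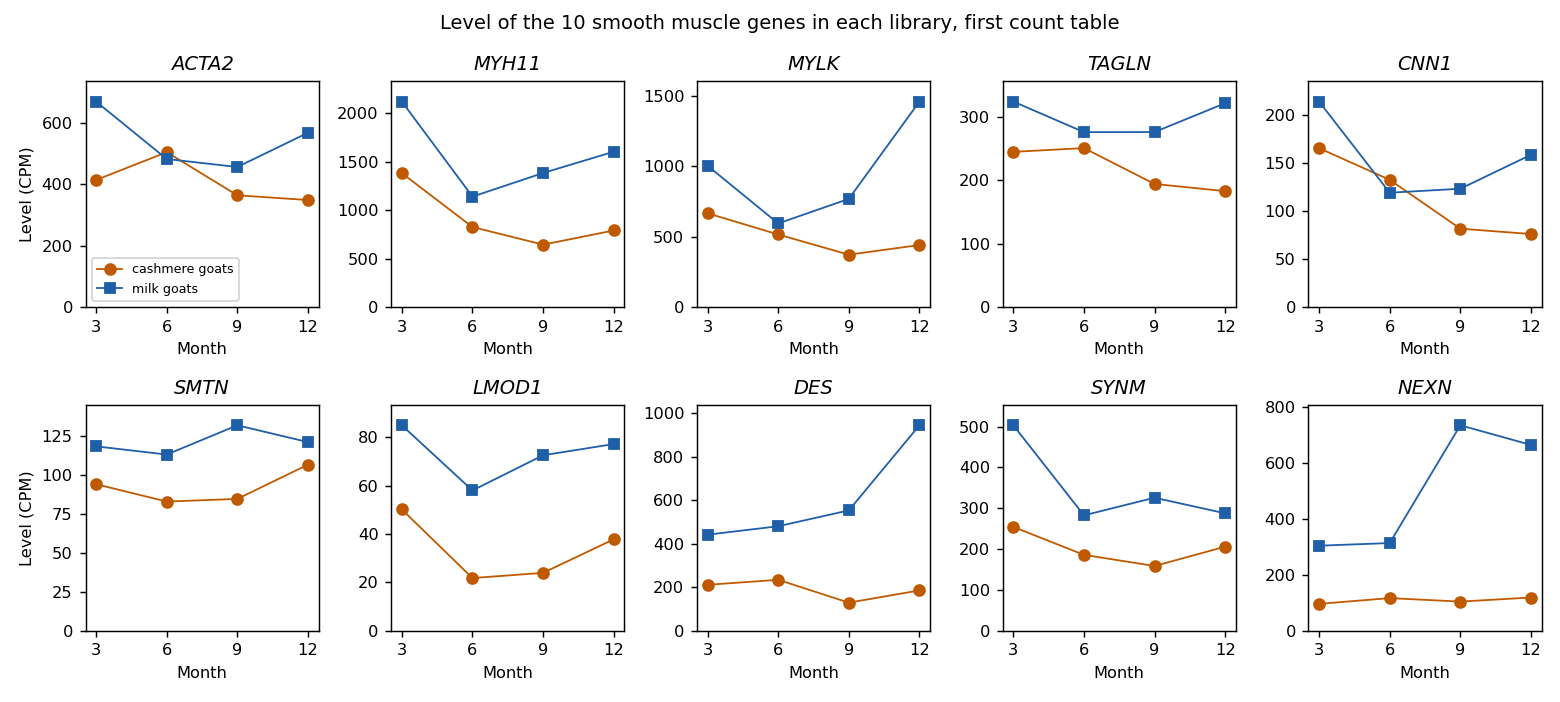
Level of each gene in CPM (vertical axis, starting at 0, with its own scale in each panel) by month (horizontal axis), 1 point per library, for cashmere goats (circles) and milk goats (squares). The milk goat points lie above the cashmere goat points of the same month in all panels except at month 6 for ACTA2 and CNN1.

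Leaving out any 1 library of months 3, 6 or 9 ended all 4 calls, and in those 6 runs only 0 to 4 of all genes were called. With month as a term, the library left alone in its month adds nothing to the breed difference. Both runs of a month are therefore nearly the same check. DES, for example, stood at -1.85 without the cashmere goat library of month 3 and at -1.83 without the milk goat library. Without either library of month 12 the same 4 genes stayed called. The fold changes moved less than the calls, and those of all 10 genes stayed negative in every alternative run. The median log2 fold change of the 10 ranged from -0.91 to -0.67 with 1 library left out.

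Among the motor and its switch, MYH11 (gene23660), the smooth muscle myosin heavy chain, had 1383, 826, 645 and 791 CPM in cashmere goats, in the order of months 3, 6, 9 and 12 used for all such values. Milk goats had 2121, 1140, 1384 and 1604 CPM. The milk goat library was the higher in each month, but the groups overlapped, since cashmere goats at month 3 stood above milk goats at month 6. The mean was 911 ± 324 CPM against 1562 ± 418 (SD, n = 4), and the log2 fold change of -0.80 ± 0.20 SE did not pass (adjusted p = 0.0659). MYLK (gene356), the kinase that switches myosin on, had 666, 516, 372 and 441 CPM in cashmere goats and 1004, 594, 769 and 1460 CPM in milk goats. Its highest value was that of milk goats at month 12, and its groups overlapped at month 3 of cashmere goats and month 6 of milk goats. The fold change was -0.89 ± 0.27 SE (adjusted p = 0.0953). ACTA2 (gene24644), the actin of the thin filament, had 413, 504, 363 and 348 CPM in cashmere goats against 668, 481, 455 and 567 in milk goats. It was 1.33-fold lower in the fit (-0.41 ± 0.19 SE, adjusted p = 0.210), and at month 6 the cashmere goat library was the higher.

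The genes for proteins that bind the thin filament did not pass the test. TAGLN (gene15528), an actin-bundling protein, ranged from 183 to 251 CPM in cashmere goats and from 276 to 324 in milk goats. The groups did not overlap, and the log2 fold change was -0.47 ± 0.16 SE (adjusted p = 0.127). SMTN (gene16579), found in contractile rather than proliferating smooth muscle, ranged from 83.0 to 107 CPM against 113 to 132. The groups did not overlap, and the breed difference of -0.40 ± 0.13 SE (adjusted p = 0.115) was the smallest fitted for the 10, next to that of ACTA2. CNN1 (gene8177), which restrains myosin on actin, ranged from 76.1 to 166 CPM against 119 to 214, with overlapping groups (-0.47 ± 0.20 SE, adjusted p = 0.192).

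LMOD1 (gene16517), the least abundant of the 10 per length in cashmere goats, had 50.1, 21.8, 23.9 and 37.8 CPM in cashmere goats. The milk goat libraries had 84.9, 58.0, 72.5 and 77.2 CPM. Every milk goat library lay above every cashmere goat library, and both breeds were lowest at month 6. LMOD1 was lower in cashmere goats by 2.29-fold (-1.20 ± 0.17 SE on the log2 scale, adjusted p = 0.0257). Its annotation in the first count table is marked as partial, so its reads come from an incomplete gene model.

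The intermediate filament genes both passed the test. SYNM (gene20583) had 254, 186, 159 and 206 CPM in cashmere goats and 503, 283, 326 and 288 CPM in milk goats. The groups did not overlap, and both breeds were highest at month 3. SYNM was 1.71-fold lower in cashmere goats (-0.78 ± 0.16 SE, adjusted p = 0.0454). It was past the threshold by little: with library totals in place of TMM the adjusted p was 0.0578, and with limma on log2(FPKM + 1) it was 0.0503.

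DES (gene1494) had 211, 234, 129 and 186 CPM in cashmere goats and 442, 480, 553 and 944 CPM in milk goats. The groups lay far apart, and milk goats at month 12 stood highest. DES was 3.11-fold lower in cashmere goats in this table (-1.63 ± 0.27 SE, adjusted p = 0.0325). That library also held the most reads of skeletal muscle genes, which share DES: ACTA1, skeletal actin, had 34.7 CPM there and 0.458 to 2.11 in the other 7 libraries, TNNT3 10.7 against at most 1.19, and CKM 5.37 against at most 1.15. Without both libraries of month 12, DES was lower by -1.39 on the log2 scale and was still called (adjusted p = 0.0304). The second count table gave other values for DES, set out after the remaining genes.

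NEXN (gene2794) had the largest breed difference of the 10. It had 96.3, 117, 104 and 119 CPM in cashmere goats, where it ranged only 1.23-fold between months, the narrowest range of the 10 in that breed. In milk goats it had 304, 314, 735 and 664 CPM, with months 9 and 12 apart from months 3 and 6. NEXN was 4.27-fold lower in cashmere goats (-2.10 ± 0.26 SE, adjusted p = 0.0243). Without month 12 the difference was -1.96 (adjusted p = 0.0216).

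The scale bears on how far the groups separate. On the authors' FPKM only DES and NEXN kept every milk goat library above every cashmere goat library, and 3.87% of 11755 genes with a mean of at least 1 FPKM did so. On plain shares of reads LMOD1, DES and NEXN did so, where the share over all those genes was 4.88%. LMOD1 overlapped on FPKM by little, with 16.41 in cashmere goats at month 3 and 16.19 in milk goats at month 9. The milk goat library of month 9 had the lowest TMM factor of the 8, 0.783. The median log2 fold change of all genes was 0.14 with library totals and 0.16 with log2(FPKM + 1), so that part of each difference between scalings is a shift of all genes. The medians of the 10 were -0.67 and -0.56 there.

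The second count table repeated the breed comparison on the same libraries with another gene set, so it is no independent sample. NEXN was called there too, 3.88-fold lower in cashmere goats at 160 ± 18.8 against 671 ± 303 CPM (SD, n = 4; adjusted p = 0.0154). SYNM was called, 1.74-fold lower (-0.80 ± 0.20 SE, adjusted p = 0.0499). These 2 of 9 genes stand beside 4.48% of 14994 tested genes called lower in that table, 2.97% higher and 7.45% either way. At an unadjusted p under 0.05, 6 of the 9 were lower (14.6% of all genes). The groups did not overlap for SMTN, SYNM and NEXN (8.69% of all genes had every milk goat library on top), and 6 were lower in cashmere goats in all 4 months (18.7%). MYLK was equally far apart in both tables (-0.89 ± 0.23 SE, adjusted p = 0.0552), and MYH11 (-0.65, adjusted p = 0.0944) and SMTN (-0.51, adjusted p = 0.0704) were near their first values. ACTA2 and TAGLN stood at -0.13 and -0.13 (adjusted p = 0.711 and 0.614), with SE of 0.21 and 0.16, and so were closer to no difference than in the first table. All 9 were negative, where 46.5% of all tested genes were.

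**Figure D2:**
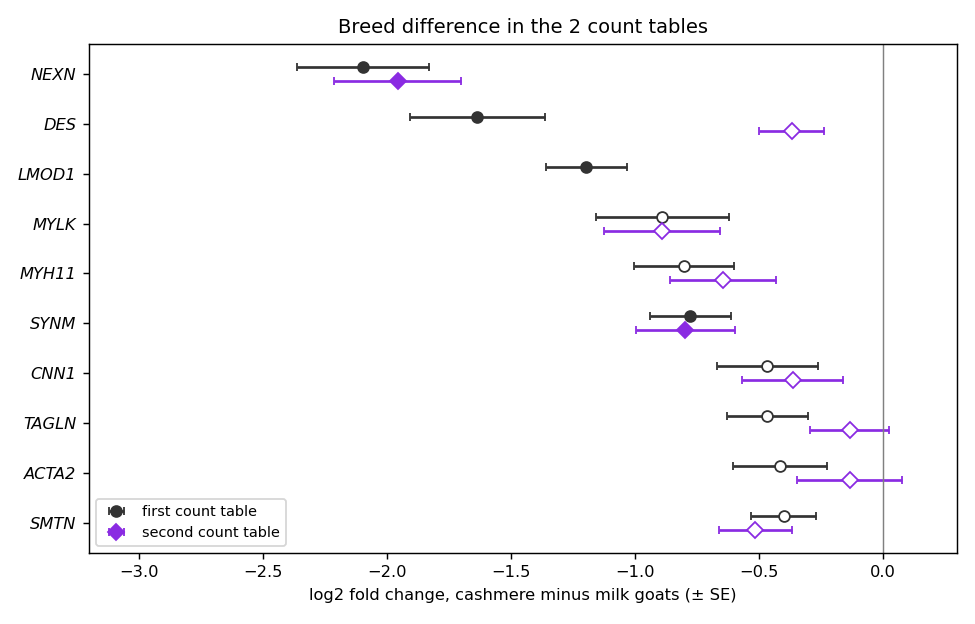
Log2 fold change, cashmere minus milk goats, with its SE (horizontal axis), for each gene (vertical axis) in the first count table (circles) and the second (diamonds), with filled symbols for an adjusted p under 0.05. NEXN, MYLK, SYNM and MYH11 have similar values in the 2 tables, while DES stands at -1.63 in the first and -0.37 in the second.

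DES was the exception. In the second table it had 98.6, 110, 77.2 and 76.6 CPM in cashmere goats and 136, 147, 94.9 and 94.0 CPM in milk goats. Milk goats were higher in each month, but the groups overlapped, and month 12 was the lowest of the milk goat months instead of the highest. The log2 fold change was -0.37 ± 0.13 SE (adjusted p = 0.109), 1.29-fold in place of 3.11-fold.

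The reads themselves show where the tables part. The second table held 0.881, 0.815, 0.979 and 0.781 DES reads for each DES read of the first in cashmere goats, by month. In milk goats it held 0.628, 0.579, 0.330 and 0.176. The ratio was lowest in milk goats at month 12, whose library had 10715 DES reads in the first table. Over 5769 genes with the same symbol and at least 100 reads in every library of both tables, the median ratio was 1.59 to 1.99 in every library. The DES ratio differed 5.55-fold between libraries. A range as large was found in 0.295% of those genes, and their median range was 1.53-fold. For the other 8 genes it differed 1.12-fold (NEXN) to 1.50-fold (SYNM). In the RefSeq annotation of the ARS1.2 assembly the genes next to DES are SPEG and DNPEP. In the first table SPEG took 25.1 reads per 1000000 in cashmere goats and 24.0 in milk goats, and DNPEP 11.5 and 8.53. In the second, SPEG took 2.49 and 1.58, far fewer than in the first, and DNPEP 18.9 and 12.1. The cause of the gap was not tested, and the size of the DES difference depends on the count table.

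**Figure D3:**
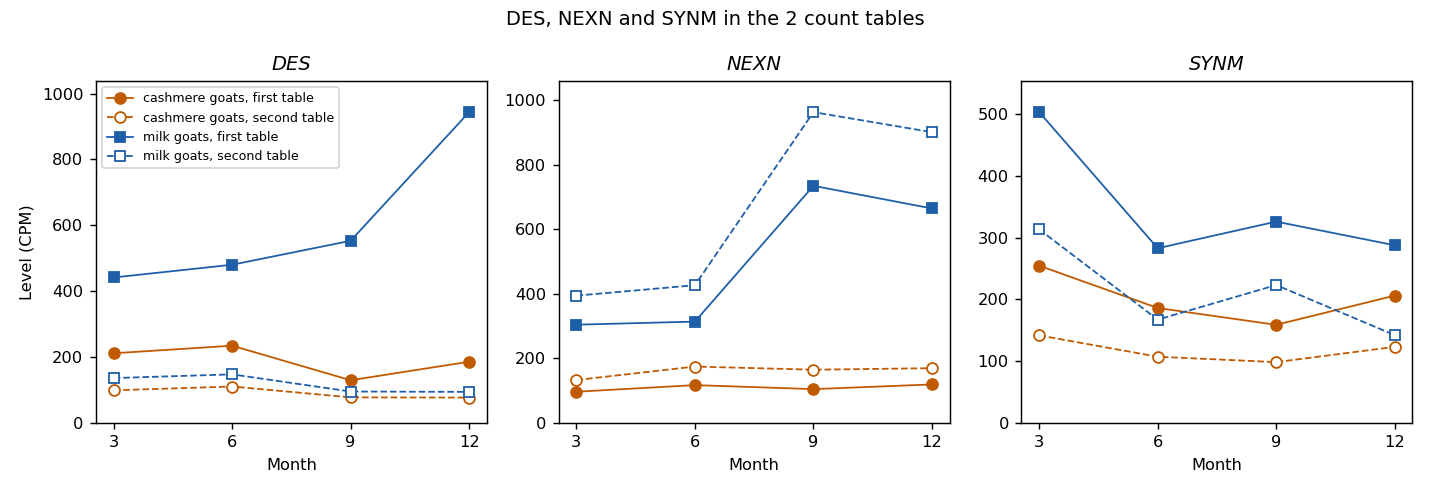
Level in CPM (vertical axis, starting at 0) by month (horizontal axis), 1 point per library, of DES, NEXN and SYNM in the first count table (filled symbols, solid lines) and the second (open symbols, dashed lines), for cashmere goats (circles) and milk goats (squares). NEXN and SYNM have like courses in the 2 tables, while DES of milk goats at month 12 stands at 944 CPM in the first and 94.0 in the second.

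NEXN had no such gap between tables, with 2.40 to 2.70 reads in the second for each in the first. FUBP1 lies directly beside NEXN in the RefSeq annotation. FUBP1 took 143 reads per 1000000 in cashmere goats and 142 in milk goats in the first table, and 153 and 145 in the second. Whether reads of neighbouring genes were counted to DES or NEXN was not tested. The labels describe directional libraries, but whether the authors counted by strand is not given in the sources used here.

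Each month holds a single library per breed, so its values are described with no test. The median log2 ratio of the 10 genes was -0.66 at month 3, -0.46 at month 6, -1.04 at month 9 and -1.03 at month 12, while that of all tested genes lay between -0.02 and 0.06. All 10 were lower in cashmere goats at months 3, 9 and 12, and 8 of 10 at month 6. For 8 of the 10 the cashmere goat library was the lower in all 4 months, which was so for 18.1% of all tested genes. The gap of NEXN widened from -1.66 and -1.43 at months 3 and 6 to -2.82 and -2.48 at months 9 and 12. That of MYLK went from -0.59 and -0.20 to -1.05 and -1.73. The 4 genes called over all months had gaps of -0.60 or beyond at month 6, the month at which ACTA2 (0.07) and CNN1 (0.15) were slightly positive.

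Whether the breed difference changed over the months was tested with the interaction of breed and a 12-month cycle, called breed by season below. The cycle joins month 12 to month 3, which suits months of the year but not ages. None of the 10 was called by edgeR's quasi-likelihood test, nor was any of the 14085 genes. Below an unadjusted threshold of 0.05 were 3 of the 10, NEXN (adjusted p = 0.658), MYLK (adjusted p = 0.686) and DES (adjusted p = 0.770), and 904 of all genes, 6.42% of those tested. DESeq2 called 79 genes and 0 of the 10. The wider NEXN and MYLK gaps of months 9 and 12 therefore did not pass this test of change over a 12-month cycle.

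The months themselves were compared over both breeds. MYH11, CNN1, SYNM and LMOD1 were highest at month 3 in each breed. In cashmere goats MYH11, MYLK, DES and SYNM were lowest at month 9, and SMTN and LMOD1 at month 6. In milk goats MYH11, MYLK, TAGLN, CNN1, SMTN, LMOD1 and SYNM were lowest at month 6. By edgeR the month effect called 0 of the 10 and 0 of 14085 genes (1894, or 13.4%, at an unadjusted p under 0.05). Of the 10, LMOD1 alone was under that unadjusted threshold (adjusted p = 0.351). DESeq2 called MYH11 (adjusted p = 0.0385) among 536 genes. Months 6 and 9 against months 3 and 12 gave a median log2 difference of -0.31 over the 10, with 9 negative, beside -0.01 and 51.8% negative over all genes. By edgeR 0 of the 10 and 0 of all genes passed (2 of the 10 and 15.5% of all genes at an unadjusted p under 0.05), LMOD1 being nearest (-0.62 ± 0.16 SE, adjusted p = 0.227), then MYH11 (-0.53 ± 0.20 SE, adjusted p = 0.284). NEXN alone was positive (0.10 ± 0.25 SE, adjusted p = 0.877). Without the cashmere goat library of month 12, MYLK was called in this contrast (adjusted p = 0.0434) among 1926 genes, while leaving out its milk goat counterpart gave 2 calls, none of them among the 10.

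Per length, on the FPKM scale, ACTA2 was the most abundant of the 10 in both breeds, at 142 ± 25.8 FPKM in cashmere goats and 166 ± 44.1 in milk goats (SD, n = 4). In cashmere goats TAGLN (107 ± 19.9), MYH11 (85.3 ± 34.4), DES (49.6 ± 12.4), CNN1 (45.3 ± 18.8), MYLK (39.0 ± 11.5) and NEXN (29.6 ± 1.89) followed. SYNM (17.1 ± 4.07), SMTN (16.4 ± 1.90) and LMOD1 (10.4 ± 4.49) were lowest. Of the neighbours in this order, ACTA2 and TAGLN, MYH11 and DES, NEXN and SYNM, and SMTN and LMOD1 were apart by more than either SD, and the other pairs were not. In milk goats DES (135 ± 47.9) came next after ACTA2, at rank 2 in place of rank 4, and NEXN (114 ± 39.3) was at rank 5 in place of rank 7. In that breed neighbours were apart by more than either SD only between NEXN and MYLK (64.2 ± 25.2) and between CNN1 (53.1 ± 19.5) and SYNM (25.9 ± 9.90). The DES rank was read in the first table alone. By mean FPKM over all libraries, ACTA2 stood above 98.95% of all listed genes and LMOD1 above 86.3%.

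The 10 genes varied together across the 8 libraries. All 45 pairs had a positive Pearson correlation of log2 CPM, from 0.31 (CNN1 with SMTN) to 0.94 (MYH11 with SYNM), with a median of 0.78. In the second table all 36 pairs were positive, with a median of 0.58. These are descriptions over 8 libraries that share their scaling and the breed difference itself. The mean standardised level of the 10 was lowest in cashmere goats at month 9 (-1.27) and highest in milk goats at month 3 (1.12). By correlation with that mean, the genes most alike were ZBTB4, RPL23, KLHL33, PLCB1, SMARCA2 and ZEB2, with r of 0.98 each over 8 libraries among 10788 candidates. Among those most like NEXN alone were SNW1 (r = 0.998), CHD5 and NFE2L1 (r = 0.994 each). None of these genes is in the muscle lists considered here.

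The other genes of contraction were taken as lists. Of 33 tested partners of the thin filament and its anchors, 1 was called lower and 1 higher in cashmere goats. The list's median log2 fold change was -0.10, with 19 negative and 14 positive. Its 34 genes found summed to 7683 to 8010 CPM in cashmere goats and 9236 to 12329 CPM in milk goats, with no overlap. CALD1, caldesmon, which blocks myosin on actin, was 2.44-fold lower at 1394 ± 187 against 3735 ± 1828 CPM (SD, n = 4; -1.29 ± 0.28 SE, adjusted p = 0.0484), and -1.21 in the second table (adjusted p = 0.0411). CALD1 made up 1199 to 1630 CPM of the list's sum in cashmere goats and 1901 to 5535 CPM in milk goats. At month 9 it was 1446 of 7803 CPM in cashmere goats and 5062 of 10977 CPM in milk goats. The separation of the sums therefore depends on CALD1. TAGLN2, the relative of transgelin that is widespread outside muscle, was 1.82-fold higher (0.87 ± 0.16 SE, adjusted p = 0.0375; 0.90 in the second table, adjusted p = 0.0365). Other relatives, chosen after their values were seen, did not pass. TPM2, a tropomyosin of muscle, stood at -1.11 (adjusted p = 0.0853), TPM1, another one, at 0.39 (adjusted p = 0.400), and ACTG2, the gamma actin of visceral smooth muscle, at -0.75 (adjusted p = 0.231). CNN2, a calponin of many non-muscle cells, stood at 0.91 (adjusted p = 0.0963), CNN3, another one, at -0.03 (adjusted p = 0.912), and TPM4, a cytoskeletal tropomyosin, at 0.42 (adjusted p = 0.216; -0.08 in the second table).

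Of 21 genes that set the phosphorylation of myosin and the calcium of the cell, 4 were called lower and 1 higher, with a median of -0.28 and 17 negative. Their sums, 2454 to 2810 CPM in cashmere goats and 2811 to 3538.5 CPM in milk goats, did not overlap, though by little. ROCK1, a kinase that inhibits myosin phosphatase, was lower by -1.10 ± 0.14 SE (adjusted p = 0.0243). PPP1R12A, the targeting subunit of that phosphatase, was lower by -1.20 (adjusted p = 0.0429), and PPP1R14A, an inhibitor of it, by -1.33 (adjusted p = 0.0325). PRKG1, the cyclic GMP kinase that relaxes smooth muscle, was lower by -1.16 (adjusted p = 0.0362). PPP1CB, the catalytic subunit of the phosphatase, was higher by 0.78 ± 0.16 SE (adjusted p = 0.0444), a gene chosen after its value was seen. In the second table PRKG1 was called again (-2.23, adjusted p = 0.0272) while PPP1R14A (-0.66, adjusted p = 0.125) and PPP1CB (0.79, adjusted p = 0.0683) were not. ROCK1 and PPP1R12A have no value from that table. The 4 genes lower in cashmere goats include both kinds, those that favour contraction (ROCK1, PPP1R14A) and those that favour relaxation (PPP1R12A, PRKG1).

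Of 16 tested receptors for contracting and relaxing signals, 0 were called by edgeR (2 lower and 2 higher at an unadjusted p under 0.05), and their median was 0.09. The endothelin receptor EDNRA stood at 0.18 ± 0.19 SE (adjusted p = 0.562) and the angiotensin receptor AGTR1 at 0.05 ± 0.24 (adjusted p = 0.911). Of 11 transcription regulators of smooth muscle 1 was called, PRRX1, a mesenchymal homeobox factor, lower by -0.61 ± 0.13 SE (adjusted p = 0.0490) but not called in the second table (-0.48, adjusted p = 0.0805). SRF, the factor that binds the promoters of most of the 10 genes, stood at 0.09 ± 0.12 SE (adjusted p = 0.674). Its partner MYOCD stood at -0.34 ± 0.29 (adjusted p = 0.479) at a mean of 2.69 CPM in milk goats. In the second table SRF stood at 0.39 (adjusted p = 0.159) and MYOCD at -0.24 (adjusted p = 0.656). Of 8 genes of the arrector muscle and dermal sheath 0 were called by edgeR (1 lower and 1 higher at an unadjusted p under 0.05). The most abundant, ACTN4 and ITGB1, which link actin to adhesion sites in many cells, stood at 0.17 (adjusted p = 0.585) and 0.15 (adjusted p = 0.591). ITGA8, an integrin of arrector muscle cells, stood at -0.73 ± 0.17 SE (adjusted p = 0.0574), and its ligand NPNT, made by the follicle's bulge, at -0.05 ± 0.16 (adjusted p = 0.881). SRF, MYOCD, ITGA8, NPNT and, further on, RGS5 were named after their values were seen.

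Markers of other cell types were read beside the 10 genes, whose summed level was 2157 to 3579 CPM in cashmere goats and 3859 to 6205 CPM in milk goats. Skeletal muscle also makes DES, SYNM and NEXN. Its 29 listed genes found summed to 68.1 to 117 CPM in cashmere goats and 85.6 to 231 CPM in milk goats, highest in milk goats at month 12, where DES of the first table was highest too. Of its 11 tested genes 0 were called by edgeR (3 lower at an unadjusted p under 0.05), with a median of -0.44 and 9 negative. The most abundant was NEB, at 43.6 ± 18.7 against 51.7 ± 10.4 CPM (-0.30, adjusted p = 0.405). TNNI1 came next, at 7.10 ± 2.16 against 12.5 ± 3.17 CPM (-0.82, adjusted p = 0.0539). Other genes of the list were scarce: MYL1 and MYLPF had 0 reads in 4 libraries each, MYH8 in 5 and MYOT in 6. In the second table they reached 4.32 (MYL1), 3.08 (MYLPF), 4.47 (MYH8) and 1.29 CPM (MYOT) in milk goats. Their highest values in cashmere goats there were 0.182, 0.121, 0.348 and 0.209 CPM. MYL1, MYLPF, MYH8 and MYOT, like ACTA1, TNNT3 and CKM above, were named after their values were seen. Of the cardiac list, 4 of 7 genes were found and summed to 30.2 to 42.5 CPM against 48.2 to 80.2, so that these sums did not overlap between the breeds either. Most of that sum was TNNI3, cardiac troponin I, at 34.2 ± 5.34 against 47.1 ± 16.0 CPM (adjusted p = 0.127), and TNNT2 stood at 3.28 against 10.1 CPM (adjusted p = 0.183). The part of striated muscle in the breed differences was not tested.

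Pericytes, the contractile cells of small vessels, share part of this programme. Their 10 genes found summed to 531 to 785 CPM in cashmere goats and 505 to 1006 CPM in milk goats. Of the 10, 1 was called lower, NDUFA4L2 (-1.01 ± 0.22 SE, adjusted p = 0.0478), and RGS5, the most abundant, stood at -0.43 (adjusted p = 0.287). The 16 endothelial genes summed to 361 to 877 CPM against 369 to 1071, with 1 called lower, ERG (-0.87, adjusted p = 0.0287), and a median of -0.18. In the second table ERG was not called (-0.82, adjusted p = 0.0903). In months 3, 6 and 12 the milk goat library had the higher pericyte and the higher endothelial sum, as it had for the 10 smooth muscle genes. At month 9 it was the lower of the pair for both, while the sum of the 10 smooth muscle genes was 4826 CPM there against 2157. The part of these cells in the results was not tested.

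**Figure D4:**
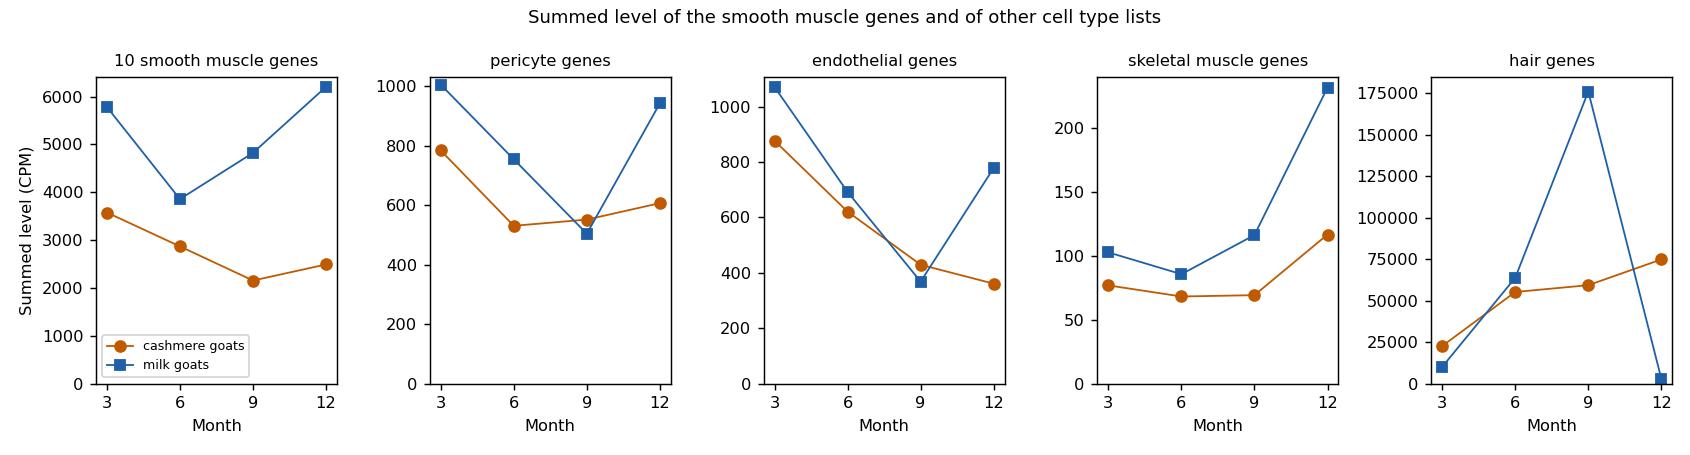
Summed level in CPM (vertical axis, starting at 0) by month (horizontal axis), 1 point per library, of the 10 smooth muscle genes and of the pericyte, endothelial, skeletal muscle and hair gene lists, for cashmere goats (circles) and milk goats (squares). On this TMM scale the smooth muscle sums of the breeds do not overlap (2157 to 3579 against 3859 to 6205 CPM), while the other 4 panels do. Sums of the thin filament, contraction control and cardiac lists, not drawn here, did not overlap on this scale either. As plain shares of reads the smooth muscle sums overlapped. Cashmere goats at month 3 had 0.404% of reads, above milk goats at months 6 (0.390%) and 9 (0.378%). The second count table overlapped at the same libraries (0.424% against 0.384% and 0.365%).

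The dermis and the follicle were read in the same way. The 13 fibroblast genes summed to 3625 to 35643 CPM in cashmere goats and 3421 to 21984 CPM in milk goats, with 1 called lower (THY1, -0.68, adjusted p = 0.0450, but 0.29 in the second table) and a median of -0.05. The 7 myofibroblast genes, ACTA2 among them, had 0 called by edgeR (0 at an unadjusted p under 0.05). The 5 adipocyte genes found summed to at most 40.8 CPM. Hair genes (13 of 25 found) ranged from 22728 to 74876 CPM in cashmere goats and from 2981 to 175959 CPM in milk goats. All 13 had a higher fitted level in cashmere goats, at a median of 1.40 on the log2 scale. By edgeR 0 were called (3 higher at an unadjusted p under 0.05). The direction of the sum changed with month. Cashmere goats were higher at months 3 (22728 against 10144 CPM) and 12 (74876 against 2981). Milk goats were higher at months 6 (63819 against 55269 CPM) and 9 (175959 against 59350). For breed by season, edgeR called 0 of the 13, but all 13 had an unadjusted p under 0.05, beside 6.42% of all genes. The milk goat library with the most hair reads (month 9) and that with the fewest (month 12) both had higher levels of all 10 smooth muscle genes than the cashmere goat library of the same month. With hair genes left out of the scaling the same 4 of the 10 were called. The part of hair content in the muscle results was not tested. Immediate early genes had 3 of 16 called higher in cashmere goats, DUSP1 (0.93, adjusted p = 0.0276), CTGF (0.78, adjusted p = 0.0371) and ZFP36 (0.76, adjusted p = 0.0406), and their part in the muscle results was not tested.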

How the data were processed

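Polyadenylated RNA from goat skin was sequenced as directional paired-end libraries, per the labels' protocols. Bowtie2 is named in the submitters' processing notes, with no role or version. The authors deposited raw read counts for 18815 genes, FPKM computed from the same genes, and a second table of raw read counts for 20780 genes. One table names the cashmere goats by a word that the labels do not use, and those columns were taken as the cashmere libraries because the milk goat columns are named as such and each month has 1 library per breed.

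The count tests used edgeR 4.0.16 under R 4.3.3, after filterByExpr on breed and TMM scaling. The model of month and breed leaves 3 residual degrees of freedom, and the interaction of breed with a 12-month cycle leaves 2. Genes passed at a Benjamini-Hochberg adjusted p under 0.05. P-values measure the spread between these libraries, which may be technical. The SE is the size of the fold change over the root of F. Log2 CPM for correlations used a prior count of 2. The scripts were tested on simulated data. Alternatives were DESeq2 1.42.0, other scalings and filters, limma 3.58.1 on log2 FPKM (pseudocounts 1 and 0.1), breed alone without the month term, and each library left out. The second count table and whole months left out were added after the data were seen. FPKM and counts gave the same gene lengths, up to 1 factor per library, within 0.0163% over 368 genes of at least 50 FPKM.

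The 10 genes and all lists were chosen with earlier results of these data known. All 10 are named. From the other lists the rule took up to 4 genes past the threshold in the breed comparison, otherwise the 2 most abundant. For lists of cells other than smooth and striated muscle the summed level is given in place of those 2. Likeness was read among genes averaging 5 CPM or more whose symbol does not start with LOC, the 6 most like the mean of the 10 and the 4 most like NEXN. A few genes picked this way are not reported here.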

Additional observations from a re-analysis of the deposited data

How the results depend on the processing

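The fitted breed difference of each of the 10 genes was negative in every alternative run, and none was called higher. The number called lower (4) was 7 with DESeq2 (MYH11, MYLK and TAGLN added), 2 in the model without month (DES and NEXN) and 2 of 9 in the second count table (SYNM and NEXN). It was 3 with library totals and with both FPKM pseudocounts, where SYNM was not called. With both libraries of month 3, 6 or 9 left out it was 0 each time, and all genes called came to 2, 4 and 2. Those runs nearly repeat the ones with 1 library of the month left out. With 1 library left out it ranged from 0 to 4. The calls of all genes in either direction (675, 4.79% of those tested) were 1712 with DESeq2 and 346 without month in the model. They were 1374 and 1161 with limma on log2 FPKM at pseudocounts of 1 and 0.1. In the second count table they were 1117 (7.45%), in months 6 and 9 alone 1333, and with 1 library left out 0 to 869. The month effect (0 genes) called 536 with DESeq2, 1 of them among the 10, and 0 to 1180 with 1 library left out. Months 6 and 9 against 3 and 12 (0 genes) called 343 with DESeq2, 25 and 7 with limma at the pseudocounts of 1 and 0.1, and 0 to 1926 with 1 library left out (0 to 1 of the 10). Breed by season (0 genes) called 79 with DESeq2, 17 with library totals, 118 with no filter and 38 to 501 with 1 library left out. Leaving out 1 library leaves 2 residual degrees of freedom in the breed model, and the causes of the other shifts were not tested. The 10 genes had at least 181 reads in every library. Intervals and floors from reads cover counting error only. Each month pairs 1 library of each breed and is a term of the model, and taking out this replicate block gave the 2 calls of the 10 and 346 of all genes above.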
